A study of Mus musculus with 2 samples.

Results

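The nuclear genes for subunits of the mitochondrial respiratory chain and the ATP synthase were compared between a normal and a treated culture of NE4C, a mouse line of neural stem cells. The members were the genes of the deposited table whose symbols follow the naming of complex I (Nduf), complex III (Uqcr and Cyc1), complex IV (Cox4 to Cox8) and ATP synthase (Atp5) subunits, which gave 75 of 16803 genes. By subunit, 35 belonged to complex I, 9 to complex III, 15 to complex IV and 16 to the ATP synthase. Ndufa4, named after complex I, was counted with complex IV, where its protein is now placed. Subunits made from mitochondrial DNA carry other symbols and were not analysed here.

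One library was made from the normal control culture and one from a culture that received homocysteine thiolactone (HTL), the ring-closed form of homocysteine, which reacts with lysines in proteins. Both cultures were the same cell line, with no other agent or allele named in the labels, and the labels state neither the dose nor the duration of HTL. The control library held 10350665 reads and the HTL library 9102076. With 1 library per condition no difference had a replicate check, so each test and interval covers counting error and compares these 2 libraries, not the conditions. Neural stem cell markers were present in both libraries, with a summed level over 9 genes of 208.5 FPKM in control and 148.5 FPKM after HTL (reads scaled to transcript length and library size). The markers did not move together: by the test described below 4 of the 8 tested were lower, with Vim and Sox2 carrying most of the drop, and 1 (Prom1) was higher. Neuron markers summed to 37.4 and 51.8 FPKM over 6 genes, with Tubb3 and Stmn2 higher and Dcx lower by the same test and a median log2 ratio of -0.13 over the list. Each of the other 6 marker lists summed to at most 4.33 FPKM. The part of these marker differences in the results was not tested, and in bulk RNA fewer cells of a type and less RNA per cell cannot be told apart.

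Complex I takes electrons from NADH, and complex II takes them from succinate. Both pass them to ubiquinone, from which complex III hands them through cytochrome c to complex IV, which reduces oxygen to water. The proton gradient built by complexes I, III and IV turns the rotor of the ATP synthase, whose F1 head then makes ATP. Most subunits are encoded in the nucleus, and textbook regulators of their genes are NRF1, the ETS-family protein GABPA and YY1.

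Short letter strings that these 3 factors are known to prefer were looked up in the RefSeq promoters of the members (GRCm38.p6, 250 bases before to 50 after the gene start), which were found for 63 of the 75 genes. The strings, searched on both strands, were GCGCATGCG for NRF1, CCGGAAGT for GABPA and AAGATGGCG for YY1. At least 1 of them stood in the promoter of 19 members. The windows below, 5′ to 3′ on the gene's strand with the matched letters in capitals, belong to genes whose values are described further on: matches to the NRF1 string in 4 genes of 3 complexes and in Atp5k, to the GABPA string in the only member past both cutoffs used below and in one that fell, and to the YY1 string in 3 genes.
Atp5g2, NRF1, chr15:102671070-102671098, minus strand: gctccggccgCGCATGCGCagagccttcc
Cox6a1, NRF1, chr5:115349101-115349129, minus strand: aggaacggggCGCATGCGCgctctcgctc
Uqcrc1, NRF1, chr9:108936669-108936697, plus strand: ctccgctctgCGCATGCGCagcgcggctc
Uqcr11, NRF1, chr10:80406808-80406836, minus strand: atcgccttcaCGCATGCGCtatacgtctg
Atp5k, NRF1, chr5:108434430-108434458, minus strand: ttcactgcggCGCATGCGCctttctggct
Cox8a, GABPA, chr19:7217604-7217633, minus strand: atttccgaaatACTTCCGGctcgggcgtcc
Cox8a, GABPA, chr19:7217567-7217596, minus strand: tcagcgccggaACTTCCGGctggttcggcc
Uqcrh, GABPA, chr4:116075063-116075092, minus strand: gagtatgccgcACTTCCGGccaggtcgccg
Ndufa9, YY1, chr6:126849097-126849125, minus strand: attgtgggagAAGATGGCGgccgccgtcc
Atp5j2, YY1, chr5:145191500-145191528, minus strand: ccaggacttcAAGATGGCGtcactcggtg
Ndufc1, YY1, chr3:51408915-51408943, minus strand: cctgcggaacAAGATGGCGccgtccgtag
The NRF1 string nearly reads the same on both strands, so several of its sites match in both orientations and were counted once per gene.

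The NRF1 string was in 8 of 63 member promoters (12.7%), against 4.004% of the 10615 genes tested that had a RefSeq promoter and 1.95% of all 27025 genes with a RefSeq promoter. The YY1 string was in 7 of 63 (11.1%), against 3.50% and 1.64%. The GABPA string was in 5 of 63 (7.94%), against 8.79% and 4.31%. Of the 7 YY1 matches, 6 began between 23 and 36 bases into the transcript, counted from 1 at the gene start. The YY1 string holds the start codon letters ATG, and whether these matches lie at coding starts was not tested. A match describes letters and not a bound site. The median log2 ratio of HTL to control reads, defined below, was 0.28 over members with the NRF1 string and 0.34 over those without it, 0.35 and 0.32 for YY1, and 0.15 and 0.34 for GABPA.

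The first comparison asked whether the subunit genes differed in level between the libraries. Together they held 87791 reads in control, or 8482 CPM (reads scaled to library size), and 96085 reads after HTL, or 10556 CPM. They thus rose from 0.848% to 1.06% of all reads, a log2 ratio of 0.32 (95% interval 0.30 to 0.33). Most single genes were slightly higher in the HTL library. A log2 ratio above 0 was found for 64 of 75 members, against 41.3% of the 13442 genes tested, and the median over members was 0.32 against -0.14 over all genes tested. The genes ran from -0.66 (Atp5s) to 1.49 (Cox6b2), both counted from few reads.

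A gene is said below to have risen or fallen where the exact binomial test on its reads, adjusted by Benjamini-Hochberg over all 13442 genes tested, gave a p of at most 0.001. By that rule 38 members rose, against 14.5% of all genes tested, and 4 fell, against 24.1%. The other 33 did not pass. Smaller ratios pass this test where reads are many. The median control level was 100.57 FPKM over members and 7.13 FPKM over all genes tested, so these shares are not compared at equal depth. Adding the study's second cutoff, an absolute log2 ratio of at least 1, left 1 member higher (Cox8a), against 2.81% of all genes tested, and 0 lower, against 7.98%. By TMM scaling (trimmed mean of M-values, which sets the library sizes from the bulk of the genes), which raised log2 ratios by 0.13, 552 of all genes tested were higher and 800 lower by both cutoffs instead of 378 and 1072, and 52 members rose and 2 fell. At a smaller fold of 1.5, whatever the p, 13 members were higher and 1 lower, while 12.1% of all genes tested were higher and 25.7% lower. The 95% counting interval lay above 0 for 52 members, below 0 for 6 and across 0 for 17.

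**Figure D1:**
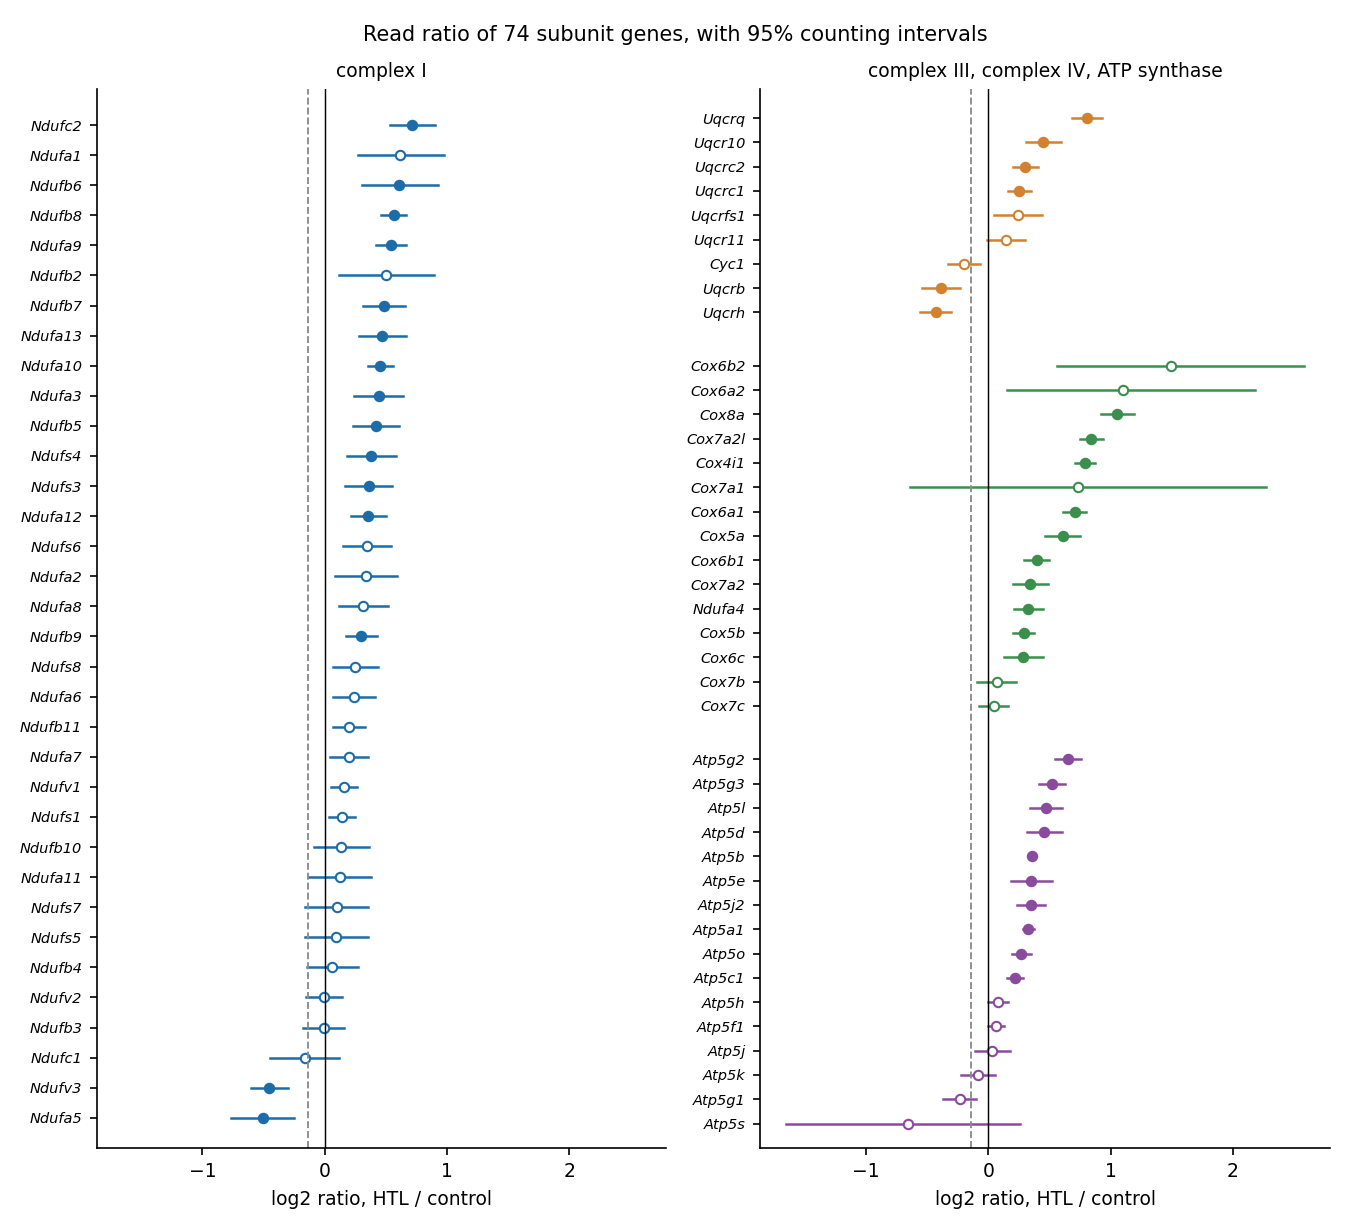
The x axis gives the log2 ratio of HTL to control reads of 74 subunit genes, grouped by complex, with bars for the 95% counting interval. Filled points passed the exact binomial test at an adjusted p of at most 0.001, open points did not, and the dashed line marks the median of all genes tested at -0.14. Most points lie between 0 and 0.6, the 15 complex IV genes all lie above 0, and the 4 filled points below 0 are Ndufa5, Ndufv3, Uqcrh and Uqcrb.

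Transcript length moved with the ratios in these libraries, and the subunit genes are short. The shortest of 10 equal length bins held 56 of the 75 members, with a median log2 ratio of 0.34. The other 1290 genes of that bin had a median of 0.12, and 296 of them rose, against 27 of the 56 members. By summed reads the 2 sets were alike, with a log2 ratio of 0.33 (95% interval 0.32 to 0.35) for the 56 members and 0.34 for the 1290 other genes. The 19 longer members had a median of 0.25, and 11 of them rose. Relative to the median of each gene's own bin, the median over members was 0.22. Whether length acts on these values was not tested. Among the members themselves, Spearman's rho across the 75 genes was -0.06 between log2 ratio and length and -0.09 between log2 ratio and control FPKM. The genes share both libraries and are not independent replicates.

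**Figure D2:**
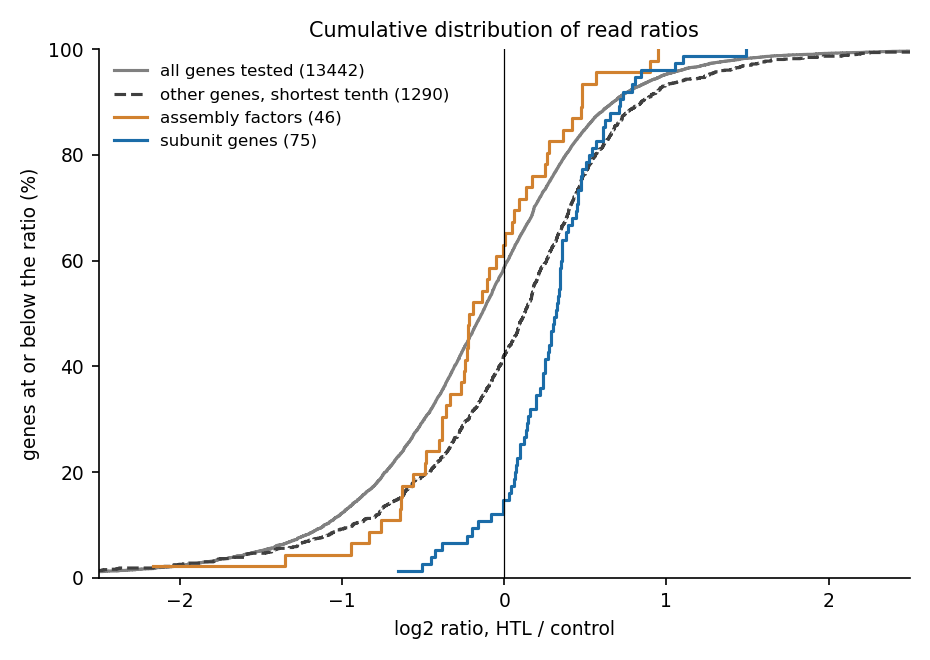
Each line gives the percentage of genes at or below a log2 ratio of HTL to control reads, for all 13442 genes tested, the 1290 other genes of the shortest length bin, the 46 assembly factors tested and the 75 subunit genes. The subunit line lies to the right of the others around 0, where 11 of the 75 genes are below 0, and meets the line of the other short genes above about 0.5.

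Levels per transcript length were high in both libraries and closely related between them. The median member had 100.6 FPKM in control and 119.9 FPKM after HTL, and 55 of 75 members were above the 90th percentile of FPKM among genes tested in control. Spearman's rho between the FPKM of the members in the 2 libraries was 0.97. At the top was Atp5b, the catalytic beta subunit of the F1 head, with 771 FPKM in control and 985 FPKM after HTL. Its reads made up 17.0% of all member reads in control. At the bottom were Atp5s, Cox6a2, Cox7a1 and Cox6b2, each between 1.90 and 2.65 FPKM in control.

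**Figure D3:**
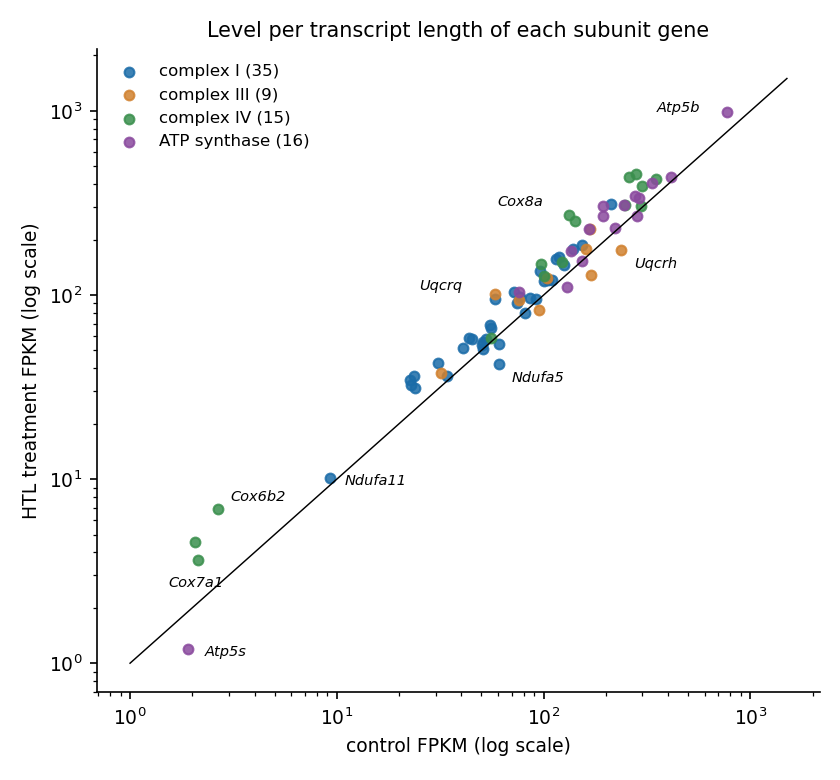
The control level of each of the 75 subunit genes is on the x axis and the HTL level on the y axis, both in FPKM on log scales, colored by complex, and the line marks equal levels. Points lie along the line over the whole range from 1.90 to 771 FPKM in control, most of them just above it, with Uqcrh and Ndufa5 below it.

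Complex I was examined by its arms. The 7 core subunits in the table, all of the matrix arm that carries the flavin and iron-sulfur clusters, had a median log2 ratio of 0.16. Of the 7, 2 rose and 0 fell, against 14.5% and 24.1% of all genes tested. Ndufs3, a subunit of the matrix arm's middle part, had 429 reads in control and 484 after HTL (log2 ratio 0.36). Those that did not pass the test lay between -0.00 (Ndufv2) and 0.25 (Ndufs8). With the TMM, median of ratios or upper quartile scaling 5 of the 7 rose. Among the 19 accessory subunits of the membrane arm, 9 rose and 0 fell, against the same 14.5% and 24.1%, and their median was 0.42.

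The highest ratio of complex I with a mean of at least 50 reads belonged to Ndufc2, a small membrane arm subunit. It had 402 reads in control and 581 after HTL, a log2 ratio of 0.72 (0.53 to 0.90; adjusted p = 9.00e-14, exact binomial test). Ndufa1, a single-span membrane subunit, came next with 119 and 161 reads (log2 ratio 0.62; 0.27 to 0.98), and its adjusted p of 0.00101 in the exact binomial test just missed the cutoff, which it passed by the other 3 scalings and with the filter of a mean of 50 reads. The complex I gene with the highest level, Ndufb8, rose from 212 to 313 FPKM, with 1350 and 1756 reads (0.56; 0.46 to 0.67). Ndufa9, a matrix arm subunit with a YY1 string in its promoter, rose from 970 to 1241 reads (0.54). All of these were higher in the HTL library, and none reached a doubling.

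Of the 9 accessory subunits of the matrix arm 3 rose, against 14.5% of all genes tested. Both complex I genes that fell were among these 9, a share near the 24.1% of all genes tested that fell. By TMM scaling 7 of the 9 were higher and 1 lower. Their median log2 ratio by library totals was 0.34. Ndufa5 had 325 reads in control and 201 after HTL, a log2 ratio of -0.51 (-0.77 to -0.25; adjusted p = 0.000232, exact binomial test), and it missed the cutoff by the other 3 scalings. Ndufv3, a small subunit bound to the flavoprotein end of the arm, went from 941 to 605 reads (log2 ratio -0.45; -0.60 to -0.30; adjusted p = 6.94e-09, exact binomial test). Ndufc1 of the membrane arm, with a YY1 string, lay at -0.16 (-0.45 to 0.12) and did not pass.

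The fall of Ndufv3 held for reads and not for the level per length. Its FPKM was 110.2 in control and 119.9 after HTL, a log2 ratio of 0.12, opposite in direction to that of the reads. The reads and FPKM of a gene together imply the length used for its scaling, and for Ndufv3 this was 825 bases in control and 554 bases after HTL, a ratio of 0.672. Only 13 of the 10062 genes that averaged at least 50 reads (0.129%) had a ratio that low or lower, Ndufv3 included, while each of the other 70 members with such a mean lay within 5% of 1. In the GENCODE vM1 annotation (NCBIM37, chromosome 17, 31657060 to 31668266, plus strand), the longest of 3 transcripts has 1575 bases, of which its exon 3 takes 1092 (31664255 to 31665346). A transcript of 483 bases lacks that exon, and one of 642 bases ends before it. The table gives 1 value per gene, so the reads of each transcript were not analysed here.

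**Figure D4:**
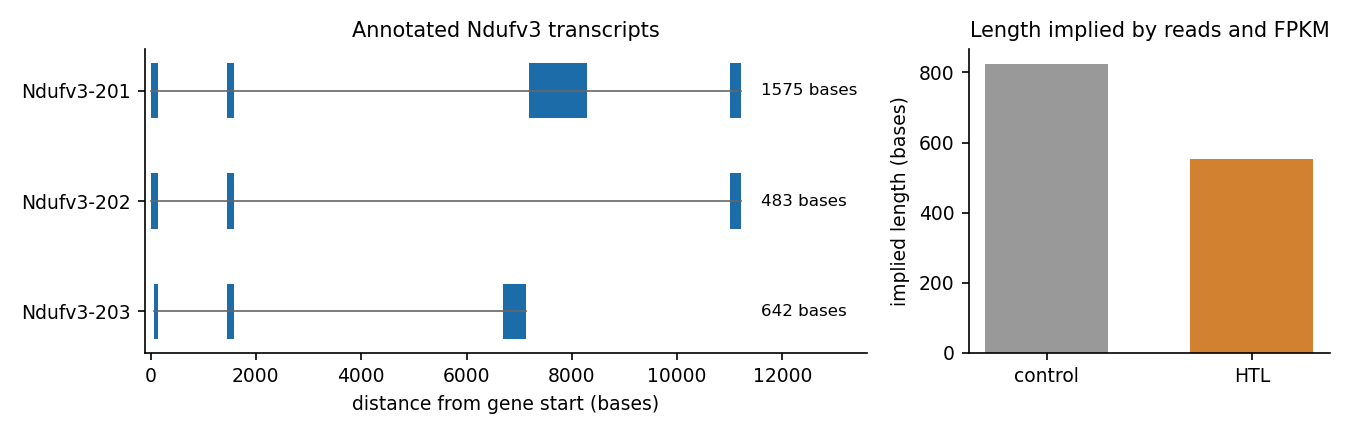
The left panel draws the exons of the 3 annotated Ndufv3 transcripts as boxes by distance from the gene start in bases, with transcript lengths at the right, and shows that the exon of 1092 bases is in the longest transcript alone. The right panel gives the length in bases implied by the reads and FPKM of Ndufv3, 825 for control and 554 for HTL, 1 library each and no error bar.

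In complex III 4 of 9 genes rose, against 14.5% of all genes tested, and 2 fell, a share near the 24.1% of all genes tested. The median log2 ratio was 0.24. Uqcrq, a small subunit bound to cytochrome b, rose from 908 to 1399 reads, a log2 ratio of 0.81 (0.69 to 0.93; adjusted p = 2.98e-39, exact binomial test). Uqcr10, another small subunit, had 718 and 862 reads (0.45). The paired core proteins Uqcrc1, with an NRF1 string, and Uqcrc2 rose by less, from 1773 to 1858 reads (0.25) and from 1479 to 1606 reads (0.30).

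Both complex III genes that fell are small accessory subunits. Uqcrh, the acidic hinge protein next to cytochrome c1, had 1315 reads in control and 859 after HTL, a log2 ratio of -0.43 (-0.55 to -0.30; adjusted p = 5.13e-11, exact binomial test). It was also the complex III gene with the highest control level, at 237.6 FPKM, against 176.1 FPKM after HTL. Uqcrb, which binds near the ubiquinone site, went from 829 to 558 reads (log2 ratio -0.39; -0.54 to -0.23; adjusted p = 3.40e-06, exact binomial test). The 2 redox subunits besides mitochondrial cytochrome b did not pass: Cyc1, or cytochrome c1, had 1161 and 890 reads (-0.20) and Uqcrfs1, the Rieske iron-sulfur protein, 430 and 447 reads (0.24). Uqcr11, with NRF1 and GABPA strings, lay at 0.15 and did not pass either. By TMM scaling Uqcrfs1 passed, and by the median of ratios Uqcr11 as well. Scaling by TMM or the median of ratios left Uqcrh and Ndufv3 below 0 and past the test, while Uqcrb was also below 0 but missed it.

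Complex IV stood highest. All 15 genes had a log2 ratio above 0, 10 rose and 0 fell. Their summed reads went from 14432 to 18311, a log2 ratio of 0.53 (0.50 to 0.56), next to 0.27 (0.25 to 0.30) for complex I, 0.16 (0.12 to 0.20) for complex III and 0.29 (0.27 to 0.31) for the ATP synthase. The interval of complex IV did not overlap the other 3, for counting error only. The median of the 15 genes was 0.61, and it was 0.37 after leaving out the 3 genes with a mean under 50 reads. With the same filter it was 0.30 for complex I, 0.24 for complex III and 0.33 for the ATP synthase. The 11 ubiquitous subunits, without Cox7a2l and 3 tissue isoforms, had a median of 0.34, next to 0.35 for the F1 head. All 15 genes were in the shortest length bin, with 26 of 35 complex I, 4 of 9 complex III and 11 of 16 ATP synthase genes.

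Cox8a, the smallest subunit of complex IV in most tissues (gene 12868; NCBIM37, chromosome 19, 7289648 to 7292106, minus strand), had 707 reads in control and 1290 after HTL. Its log2 ratio was 1.05 (0.92 to 1.19; adjusted p = 5.10e-56, exact binomial test), and its level went from 132 to 273 FPKM. Cox7a2l, which joins complexes III and IV into a supercomplex, rose from 1589 to 2506 reads (0.84; 0.75 to 0.93). Cox4i1, a large nuclear subunit that binds ATP, rose from 1943 to 2951 reads (0.79; 0.71 to 0.87), and Cox6a1, with an NRF1 string, from 1460 to 2093 reads (0.70; 0.61 to 0.80). Cox5a rose from 684 to 917 reads (0.61). These 5 genes were all more than 1.5-fold higher in the HTL library.

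The other ubiquitous complex IV genes moved less. Cox5b, the one with the highest control level, rose from 349 to 426 FPKM, with 2014 and 2164 reads (0.29; 0.20 to 0.38). Cox6b1 rose from 1473 to 1704 reads (0.40), Cox7a2 from 760 to 848 (0.34), Ndufa4 from 1180 to 1303 (0.33) and Cox6c from 637 to 684 (0.29). The lowest were Cox7c, with 1285 and 1165 reads (0.04; -0.07 to 0.16), and Cox7b, with 665 and 614 reads (0.07; -0.09 to 0.23). Neither passed the test. Cox7c has a near copy with the same protein description, Gm12338, with 77 and 115 reads, and with both summed its log2 ratio was 0.10. Another gene of the same orthology entry, Gm10012, held 1733 and 1525 reads, so the split of reads among these genes is uncertain.

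Complex IV also has tissue isoforms, best known from heart, skeletal muscle and testis. Cox6a2, the heart and muscle form, had 14 reads in control and 27 after HTL (1.10; 0.15 to 2.18). Cox6b2, the testis form, had 13 and 33 reads (1.49; 0.57 to 2.58). Cox7a1, another heart and muscle form, had 8 and 12 reads (0.73; -0.64 to 2.27). None of the 3 passed the test by this scaling, with adjusted p-values of 0.0336, 0.00227 and 0.355 in the exact binomial test, and their intervals were wide. By the other 3 scalings Cox6b2 passed, with an adjusted p of 0.00073 in the exact binomial test after TMM. Per transcript length, Cox6a2 stood at 0.741% of the FPKM of Cox6a1 in control and 0.997% after HTL, Cox6b2 at 0.888% and 1.75% of Cox6b1, and Cox7a1 at 2.12% and 2.85% of Cox7a2. The ubiquitous form thus made up nearly the whole signal in both libraries. The other isoforms Cox4i2, Cox7b2, Cox8b and Cox8c were not analysed here.

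In the ATP synthase the 5 genes of the F1 head moved together. All 5 rose, against 14.5% of all genes tested, with log2 ratios from 0.22 to 0.46. Atp5b went from 14963 to 16849 reads (0.36; 0.32 to 0.39; adjusted p = 8.22e-106, exact binomial test) and Atp5a1, its alpha partner, from 7010 to 7741 reads (0.33; 0.28 to 0.38). The gamma shaft Atp5c1 had 3492 and 3574 reads (0.22), the delta subunit Atp5d 718 and 867 (0.46) and the epsilon subunit Atp5e 547 and 614 (0.35). The alpha and beta genes together held 25.0% of all member reads in control and 25.6% after HTL.

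The peripheral stalk, which holds the head still against the rotor, had a median log2 ratio of 0.07. Of its 4 genes Atp5o alone, the OSCP subunit at the top of the stalk, rose, from 2600 to 2755 reads (0.27; 0.19 to 0.35). Atp5f1 had 3733 and 3435 reads (0.07; -0.00 to 0.13), Atp5h 2335 and 2170 (0.08; -0.01 to 0.16) and Atp5j 849 and 763 (0.03; -0.11 to 0.17). With the other 3 scalings Atp5f1 and Atp5h rose too. Among the small membrane subunits, Atp5l rose from 856 to 1045 reads (0.47) and Atp5j2, with a YY1 string, from 1183 to 1322 (0.35). Atp5k, with an NRF1 string, had 954 and 792 reads and lay at -0.08 (-0.22 to 0.05), below 0 by this scaling and above 0 by the other 3 scalings tried. Atp5s, a coupling factor outside the core enzyme, had 29 and 16 reads (-0.66; -1.65 to 0.26).

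The c ring of the rotor is built from 1 mature protein that 3 genes encode. Atp5g1 had 1047 reads in control and 784 after HTL, a log2 ratio of -0.23 (-0.37 to -0.10) that missed the cutoff with an adjusted p of 0.00170 in the exact binomial test. By the other 3 scalings it lay nearer to 0, at -0.10 by TMM with an adjusted p of 0.205 in the same exact test. Atp5g2, with an NRF1 string, rose from 1249 to 1724 reads (0.65; 0.54 to 0.76; adjusted p = 4.27e-33, exact binomial test). Atp5g3 rose from 1372 to 1730 reads (0.52; 0.42 to 0.62; adjusted p = 1.57e-22, exact binomial test). Summed, the 3 genes had a log2 ratio of 0.39.

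The makeup of the c ring reads therefore differed between the libraries. Atp5g1 supplied 28.5% of them in control (95% Clopper-Pearson interval 27.1 to 30.04) and 18.5% after HTL (17.3 to 19.7). The share of Atp5g2 was 34.1% (32.5 to 35.6) and 40.7% (39.2 to 42.2), and that of Atp5g3 37.4% (35.8 to 39.0) and 40.8% (39.3 to 42.3). The intervals of the 2 libraries did not overlap for any of the 3 genes. By FPKM, which takes length into account, Atp5g1 went from 25.2% to 16.2% of the 3 genes. The longest stretch of bases shared exactly between their annotated coding transcripts (GENCODE vM1) was 21 for Atp5g1 and Atp5g2, 11 for Atp5g1 and Atp5g3 and 9 for Atp5g2 and Atp5g3. The difference in log2 ratio between Atp5g2 and Atp5g1 was 0.88 and does not depend on the scaling of the libraries.

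Other genes of the pathway were set beside the subunits. All 4 genes of complex II rose, against 14.5% of all genes tested, from Sdha, the flavoprotein, with 1586 and 1749 reads (0.33), to Sdhd, a membrane anchor, with 711 and 833 reads (0.41). Their median was 0.38. Cycs, the somatic cytochrome c, had 1977 and 1661 reads (-0.07; -0.16 to 0.03) and did not pass. It lay below 0 by this scaling and above 0 by the other 3. Of 5 tested subunit or inhibitor genes that carry other symbols, 0 passed in either direction by the exact binomial test at an adjusted p of 0.001, against 14.5% of all genes tested higher and 24.1% lower, and the genes ran from Ndufa4l2, with 6 and 4 reads, at -0.36 to 2010107E04Rik at 0.26. Atpif1, the ATP synthase inhibitor and the lowest of them with a mean of at least 50 reads, lay at -0.14.

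Factors that assemble the complexes without staying in them had lower ratios than the subunits. Of 46 tested, 4 rose, against 14.5% of all genes tested, and 9 fell, against 24.1% (7 and 7 by TMM scaling). Neither share by library totals was above that of all genes tested. The median was -0.20, near the -0.14 over all genes tested. The median control level was 11.36 FPKM, against 100.57 FPKM for the subunits, so counts of the 2 sets are not compared at equal depth. The 16 assembly factors in the shortest length bin had a median of -0.17. In that bin the 56 subunits had 0.34 and the 1290 other genes, these 16 included, 0.12. By complex, the medians were -0.24 for complex I (14 genes, 0 higher, 2 lower), -0.38 for complex III (6 genes, 0 higher, 3 lower), -0.09 for complex IV (23 genes, 3 higher and 4 lower, or 6 and 3 by TMM scaling) and 0.26 for the ATP synthase (3 genes, 1 higher, 0 lower). Under the other 3 scalings the median for complex IV factors lay above 0, at 0.04 by TMM, while the medians for the other complexes kept their sign.

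Lyrm7, the chaperone of the Rieske protein, fell from 120 to 41 reads (-1.35; -1.91 to -0.84; adjusted p = 1.38e-07, exact binomial test). Coa4, a complex IV factor of the intermembrane space, fell from 63 to 12 reads (-2.16; -3.23 to -1.30; adjusted p = 1.50e-07, exact binomial test). Among complex I factors Tmem186 was lowest, with 207 and 102 reads (-0.83), and Ndufaf5 highest, with 58 and 71 reads (0.47; -0.04 to 1.00), the latter without passing. In the other direction Cox14, a factor for the Cox1 protein, rose from 74 to 126 reads (0.95; 0.53 to 1.39), and Tmem70, which helps to build the c ring, from 218 to 358 reads (0.90; 0.65 to 1.15). The lowest ATP synthase factor, Atpaf2, had 518 and 390 reads (-0.22), the highest complex III factor, Ttc19, 190 and 199 (0.25), and neither passed.

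Of 13 regulators of mitochondrial transcription or of these genes, 0 rose, against 14.5% of all genes tested, and 5 fell, against 24.1%. Of the 5 that fell, 4 were also at least 2-fold lower, against 7.98%. The other 8 did not pass, among them Tfam, with 979 and 795 reads (-0.11), and Tfb2m, with 309 and 248 (-0.13). The shortest length bin held 0 of the 13, and the median of all genes tested ran from 0.14 in that bin to -0.38 in the longest. By the other 3 scalings 4 fell and 0 rose, as Mterf1b missed the test, which left 3 past both cutoffs. Tfb1m, a methyltransferase of mitochondrial ribosomal RNA, fell from 284 to 91 reads (-1.45; -1.81 to -1.11). Polrmt, the mitochondrial RNA polymerase, fell from 266 to 106 reads (-1.14; -1.48 to -0.81). Mterf1a and Mterf1b, which are near-identical copies of a termination factor and may share reads, had 45 and 4 reads (-3.16; -5.24 to -1.85) and 38 and 10 reads (-1.69; -2.91 to -0.71). Pprc1, a coactivator of NRF1, fell from 3031 to 1521 reads (-0.81; -0.90 to -0.72). The genes of the factors whose strings were searched did not pass: Nrf1 had 569 and 524 reads (0.07), Gabpa 1011 and 803 (-0.15) and Yy1 955 and 812 (-0.05). The highest of the list was Esrra, with 174 and 161 reads (0.07).

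**Figure D5:**
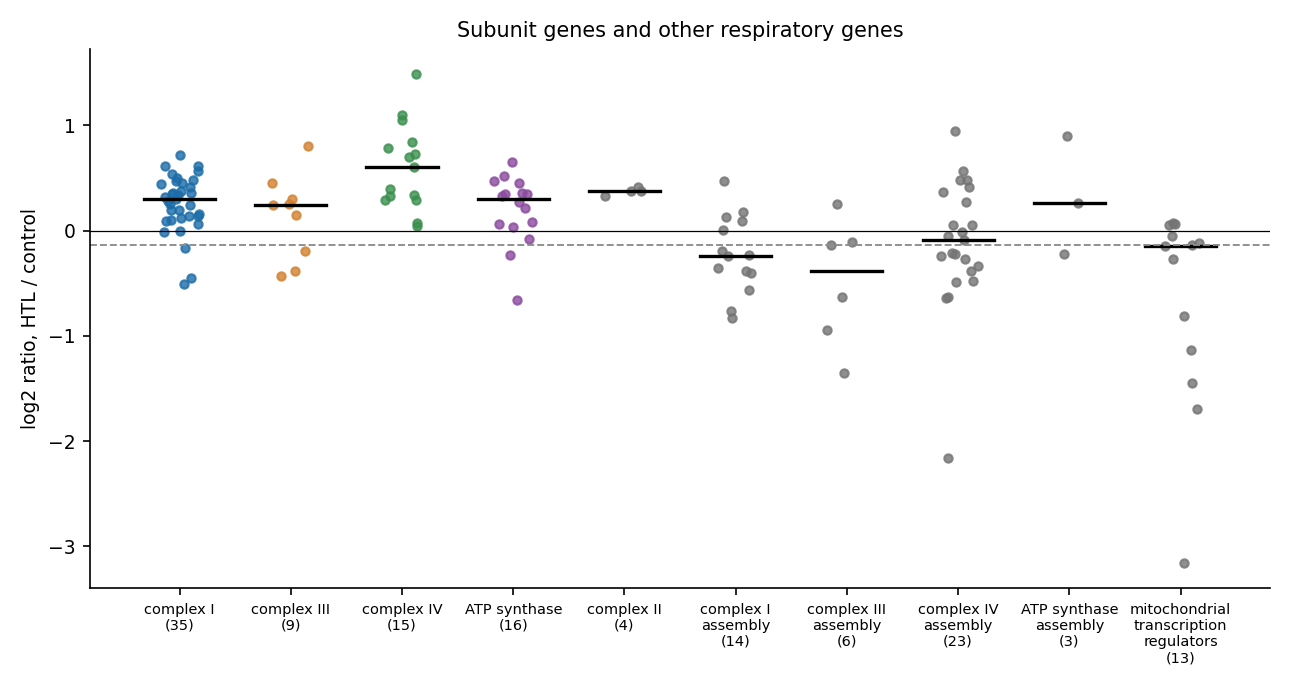
Each point gives the log2 ratio of HTL to control reads of 1 gene, black bars mark medians, numbers under the names count genes tested, and the dashed line marks the median of all genes tested at -0.14. The medians of complexes I, III and IV, the ATP synthase and complex II lie between 0.24 and 0.61, while those of the assembly factors of complexes I, III and IV and of the regulators lie between -0.38 and -0.09, of which that for complex IV factors lay above 0 by the other 3 scalings.

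Some members overlap other genes. In the GENCODE vM1 annotation, exons of 17 members overlap exons of a gene on the opposite strand, among them Ndufb6, Ndufa13, Ndufb5, Uqcrb, Cox6c, Cox5a, Atp5d and Atp5j, the last with Gabpa, and for Ndufb2 and Atp5o also a gene on the same strand. The use of strand in counting is not given in the sources used here, and without it reads of such pairs cannot be told apart. Ndufs5 has a near copy with the same protein description, BC002163, with 323 and 365 reads, next to 267 and 251 for Ndufs5 itself (0.10). The 74 members with a single annotated position lie on 19 chromosomes, with at most 7 on one.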

How the data were processed

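RNA of 1 control and 1 HTL-treated NE4C culture was sequenced, and the sample titles gave the groups. The authors deposited 1 table with estimated counts per gene, not normalized and made with RSEM per the study's methods. The authors also deposited FPKM values, which are scaled to library size and to transcript length. The submitters' processing notes name the genome build mm9. The mapper, versions and use of strand are not given in the sources used here. The table's own log2 ratio, p-value and FDR columns hold the study's comparison and were not used. It held 0 columns of samples outside the series.

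Estimated counts were rounded (6 of 75 members had fractional values). Genes whose reads in both libraries summed to at least 10 were tested by a two-sided exact conditional binomial test against the library totals, with Benjamini-Hochberg adjustment (SciPy 1.17.1). Log2 ratios had 0.5 read added per library, scaled to the totals. Intervals are 95% Clopper-Pearson intervals. The reads carry no molecular identifiers and may repeat molecules, so tests and intervals cover counting error only. A count of 0 allowed up to 3 reads, 0.290 CPM in control and 0.330 CPM after HTL. Without replicates neither edgeR's quasi-likelihood test nor DESeq2 could be fitted. Alternatives were other scalings (TMM from edgeR 4.0.16, median of ratios, upper quartile), other filters, added reads and cutoffs, FPKM + 1, near copies summed, and the exact test of edgeR at an assumed coefficient of variation of 0.1, 0.2 or 0.4. On simulated counts for HTL against control (13461 genes, 200 of them changed by a log2 fold of 1.5), the binomial test called 200 changed and 0 unchanged genes. The counts were drawn with counting error alone, as the binomial test assumes, and the changed genes from those with many reads. The result thus checks the calculation and says nothing of variation between cultures. The exact test of edgeR found 200 changed genes at 0.1, 0 at 0.2 and 0 at 0.4, so the last 2 settings had no power for a log2 fold of 1.5. Smaller changes, such as the members' median of 0.32, were not simulated.

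Members, lists and tests were chosen with earlier results of these data known. Genes named were, per complex, the 2 highest and 2 lowest log2 ratios with a mean of at least 50 reads and the highest control FPKM, members past both cutoffs, isoform genes, and the extremes and calls of each other list. Further members were named after their values were seen, to complete a structural group. Positions are from GENCODE vM1 (NCBIM37), for Ndufb8 not given as its match was ambiguous, and promoters from RefSeq. Promoters of 12 members, among them Uqcrb, Cox4i1, Cox6c, Ndufb9, Cox6a2, Atp5a1, Ndufa2, Cyc1, Uqcrq, Uqcrc2 and Ndufs1, were not used here. The values of 1 member are counted with its group and not reported on their own here. A planned comparison of isoform proteins was not made, as no protein table was used.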

Additional observations from a re-analysis of the deposited data

How the results depend on the processing

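No paired analysis was possible because only 1 library was made per condition, and no library could be left out. The other scalings raised the log2 ratio of all genes by 0.13 (TMM), 0.14 (median of ratios) and 0.09 (upper quartile), and the share of genes tested above 0 from 41.3% to 49.4%, 49.96% and 47.2%. With them 2 members passed both cutoffs (Cox8a and Cox6b2) instead of 1. Members that fell numbered 2 by TMM and 2 by the median of ratios instead of 4, assembly factors that rose numbered 7 and 7 instead of 4, and the log2 ratio of summed member reads was 0.45, 0.45 and 0.41. The signs of Atp5k (0.0469, 0.0534 and 0.0103) and Cycs (0.0642, 0.0706 and 0.0276) reversed. The medians of the 4 complexes, of all assembly factors and of the regulators kept their signs under these scalings, but the assembly factors moved from -0.20 to -0.07, -0.07 and -0.11 and the regulators to -0.02, -0.01 and -0.05.

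The FPKM values turned Ndufv3 to 0.12, with 1 or nothing added (the latter chosen after seeing the data). With a mean of at least 50 reads, 3 outside genes passed both cutoffs instead of 6, since the others were no longer tested. An adjusted p of 0.05 gave 3 members past both cutoffs, 17 assembly factors lower and 8 higher, and a fold of 1.5 gave 9 members and 13 outside genes. An assumed variation between cultures mattered most. In edgeR's exact test with a coefficient of variation of 0.1, 2 members rose, 0 fell, and 2 assembly factors fell and 0 rose. With 0.2 and with 0.4, 0 members and 0 assembly factors passed in either direction, and 0 members and 0 outside genes passed both cutoffs. This variation cannot be measured with 1 library per condition, so the calls rest on counting error alone. No filter, 5 added reads and summed near copies left the counts of members and their median within the limits set for them. Among named genes with few reads, such as Cox6a2, Cox6b2, Cox7a1 and Atp5s, depth limits what could be seen.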

Other observations

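The following genes around the respiratory chain were chosen after the data had been seen. Of all genes tested, 14.5% rose and 24.1% fell. Of 11 genes for making or holding ubiquinone (coenzyme Q), the carrier between complexes I, II and III, 1 rose and 2 fell by the exact binomial test (adjusted p up to 0.001), shares near those of all genes tested at this list size, and the median log2 ratio was -0.06 (0.07 by TMM scaling). Coq10b, a ubiquinone-binding protein, had 91 reads in control and 134 after HTL (0.74), while Coq4 had 221 and 118 (-0.72) and Pdss1, which makes the isoprenoid tail, 255 and 141 (-0.67).

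Of 22 tested genes of the protein import machinery, through which nuclear-encoded subunits enter the mitochondrion, 6 rose and 5 fell (7 and 2 by TMM scaling), against the same 14.5% and 24.1%, with a median of 0.08. The small outer membrane subunits Tomm7 and Tomm6 had 232 and 386 reads (0.92) and 569 and 823 reads (0.72). Timm44, which tethers the import motor, had 685 and 378 reads (-0.67), and Tomm40, the channel itself, 1483 and 973 (-0.42). The 77 genes of mitochondrial ribosomal proteins had a median of 0.02, with 10 higher and 15 lower, shares near those of all genes tested, and the 80 tested genes of cytosolic ribosomal proteins a median of 0.47, with 76 higher and 2 lower. No test of a difference between these lists and the subunit genes was made.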
